A study of Mus musculus with 4 samples.

Results

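The genes described here belong to the nuclear-encoded respiratory chain and ATP synthase of the mitochondrion and the SLC25 family of solute carriers. They were taken by symbol: genes starting with Nduf, Uqcr, Atp5 or Slc25a, the numbered cytochrome c oxidase subunits from Cox4 to Cox8, and Sdha, Sdhb, Sdhc and Sdhd. This gave 134 genes of the 18820 that had a probe set naming a single gene. They comprised 81 subunits of complexes I to V, 7 assembly factors of complex I (the Ndufaf genes) and 46 SLC25 carriers. Where a gene had several probe sets, the brightest over the 4 arrays stood for it.

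The samples were cells of mouse embryonic kidneys, taken near gestation day 14 and cultured for about 10 days. All kidneys carried the Lgr5-EGFP-Ires-CreERT2 reporter allele on mice of B6.129P2-Lgr5tm1(cre/ERT2)Cle/J background, in which green fluorescent protein (GFP) follows the Lgr5 gene, so the allele was shared by both fractions. Flow cytometry collected cells with high GFP, giving 2 arrays (kidneys A and B), and cells without GFP, giving 2 arrays (kidneys B and D). The labels do not say whether a kidney letter stands for 1 animal, a litter or a pool, so the spread that the p-values measure may be technical.

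The respiratory chain passes electrons from NADH (complex I) and succinate (complex II) through complexes III and IV to oxygen, and complex V uses the resulting proton gradient to make ATP. SLC25 carriers move nucleotides, phosphate, organic acids, amino acids and cofactors across the inner mitochondrial membrane, and a few sit in other organelles. In the kidney, the proximal tubule and the thick ascending limb are rich in mitochondria, because their salt transport consumes much ATP.

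For Lgr5 the deposited log2 values were 10.43 and 10.34 in the GFP-high fraction, and in the GFP-negative fraction they were 6.39 and 6.31. The 5 markers of the thick ascending limb, among them Slc12a1 and Umod, were all higher in GFP-high cells, with a summed level (log2 of the sum) of 11.6 to 11.9 against 7.26 to 7.43. Markers of the proximal tubule (6 of 7 lower, 8.67 to 8.69 against 11.3 to 11.9), nephron progenitors (5 of 5 lower, 8.60 to 8.97 against 12.3 to 12.4), stroma (7 of 7 lower, 8.93 to 9.08 against 12.2 to 12.3) and smooth muscle (3 of 4 lower, 8.62 to 10.3 against 11.7 to 12.8) went the other way, as did those of podocytes (3 of 3 lower) and endothelium (5 of 5 lower). Of other markers, 2 of 3 for the collecting duct were higher (Aqp2 and Scnn1b) and 1 lower, 1 of 3 for intercalated cells was higher (Atp6v1b1), and 2 of 4 for proliferation were higher (Top2a and Cdk1). In such bulk samples fewer cells of a type and less RNA per cell cannot be told apart, and the part of these markers' cells in the results was not tested.

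Upstream sequences are shown here for the genes of 2 small chain subunits that rose in GFP-high cells and whose promoters held a motif searched, and for the paralogous aspartate-glutamate carriers Slc25a13, which rose, and Slc25a12, which did not pass. Each is the 250 bases before the annotated start in RefSeq (build GRCm38.p6), written 5′ to 3′ on the gene's strand. Capitals mark, in Cox6a1, the palindromic site of the transcription factor NRF1 and, in Uqcr11, CCGGAAGT, a site of ETS factors such as GABP. Both factors are known regulators of respiratory chain genes. All 4 genes lie on the minus strand, at chr5:115348959-115349208 for Cox6a1, chr10:80406822-80407071 for Uqcr11, chr6:6217174-6217423 for Slc25a13 and chr2:71367756-71368005 for Slc25a12.
Cox6a1: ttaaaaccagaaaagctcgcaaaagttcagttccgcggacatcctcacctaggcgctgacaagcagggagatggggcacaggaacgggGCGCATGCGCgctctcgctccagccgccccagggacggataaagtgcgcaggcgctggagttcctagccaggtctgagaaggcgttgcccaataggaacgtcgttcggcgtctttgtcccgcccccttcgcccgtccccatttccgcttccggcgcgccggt
Uqcr11: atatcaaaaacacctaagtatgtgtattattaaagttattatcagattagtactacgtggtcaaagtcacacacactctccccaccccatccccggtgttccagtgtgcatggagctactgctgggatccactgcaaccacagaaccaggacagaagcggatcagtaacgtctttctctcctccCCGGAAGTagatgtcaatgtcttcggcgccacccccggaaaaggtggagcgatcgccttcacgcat
Slc25a13: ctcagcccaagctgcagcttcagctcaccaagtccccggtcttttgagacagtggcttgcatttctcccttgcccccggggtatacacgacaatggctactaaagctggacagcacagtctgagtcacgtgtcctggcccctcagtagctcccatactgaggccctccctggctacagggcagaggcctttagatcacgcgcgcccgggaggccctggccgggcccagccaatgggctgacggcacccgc
Slc25a12: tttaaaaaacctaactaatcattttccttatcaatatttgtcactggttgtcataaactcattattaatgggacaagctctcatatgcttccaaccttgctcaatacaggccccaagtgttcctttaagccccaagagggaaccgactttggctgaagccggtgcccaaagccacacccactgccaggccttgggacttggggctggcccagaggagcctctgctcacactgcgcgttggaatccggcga

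The match in Cox6a1 spans the bases from 162 to 153 before the start, and that in Uqcr11 those from 66 to 59. The windows of both carriers hold neither motif, nor AAGGTCA, an element bound by the ERR nuclear receptors. RefSeq held promoter windows for 109 of the 134 genes. Some genes had several windows, and the 72 windows of chain subunits came from 67 genes. Searched on both strands for exact matches, they held the NRF1 site in 4 (5.56%), CCGGAAGT in 3 (4.17%) and AAGGTCA in 5 (6.94%). Over all 32851 windows of the same length the shares were 0.782%, 2.88% and 4.08%. The 46 carrier windows came from 36 of the carrier genes and held the motifs 0, 1 and 1 times. The other genes with the NRF1 site were Atp5g2, Atp5k, Ndufa11 and Ndufaf4, none of which passed the expression test. The other genes with CCGGAAGT, Atp5h, Slc25a20 and Uqcrh, did not pass either, nor did any member with AAGGTCA. The median window held 14.0 CpG dinucleotides for chain subunits, 11.5 for carriers and 6.0 over all windows. A match describes letters in the window and is not evidence of binding.

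Of the 134 genes, 11 rose and 6 fell in the GFP-high fraction (limma, adjusted p below 0.05 over all 18820 genes), and 117 did not pass. In all genes 8.08% were called higher and 11.2% lower, so the members' 8.21% higher was near the background and their 4.48% lower was below it. Of 81 chain subunits 2 were higher and 4 lower (2.47% and 4.94%), with a median log2 difference of 0.03 beside 0.05 for all genes. Of 46 carriers 8 were higher and 2 lower (17.4% and 4.35%), with a median of 0.06. Among genes at or above the median level, where most chain subunits lie, 11.7% were called higher and 12.1% lower. The difference in these shares between the classes was not tested.

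**Figure D1:**
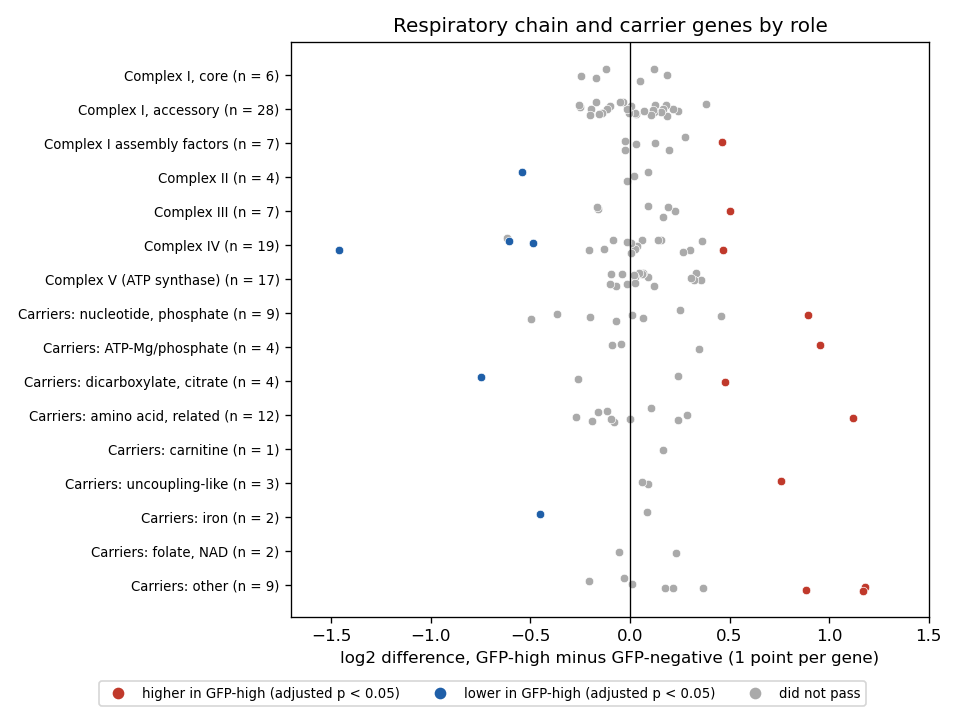
Log2 difference between GFP-high and GFP-negative cells for each of the 134 genes, 1 point per gene, in rows by role, with genes that passed in red (higher) or blue (lower). The rows of complex I subunits and complex V hold no gene that passed, while carriers reach the upper end and Ndufa4l2 of complex IV lies lowest at -1.46.

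The middle 50% of the chain subunits had log2 differences from -0.10 to 0.16, against -0.15 to 0.21 for all genes. Differences smaller than 0.5 were found in 76 of 81 subunits (93.8%), in 38 of 46 carriers (82.6%) and in 80.3% of all genes. Of the 75 subunits that did not pass, 74 had a 95% interval within 2-fold, all but Cox8b, and 66 one within 1.5-fold. Of all 15200 genes that did not pass, 14943 and 11125 did so, and missing the threshold itself favours such intervals, so these counts describe precision only. The median level of the subunits was 9.19 and 9.26 for GFP-high cells, and for GFP-negative cells it was 9.16 and 9.06, on the log2 scale.

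**Figure D2:**
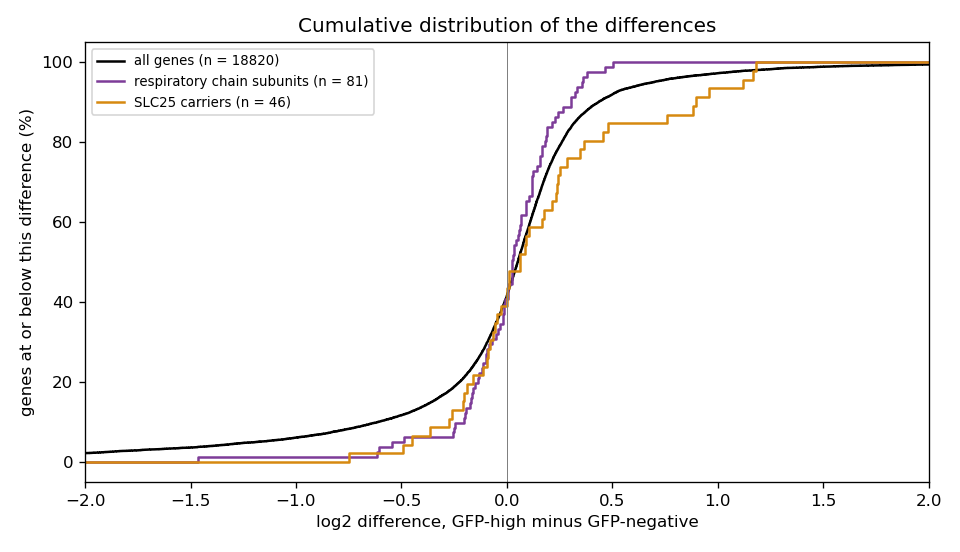
Share of genes (percent) at or below each log2 difference between GFP-high and GFP-negative cells, for all 18820 genes, the 81 chain subunits and the 46 carriers. The curve of the chain subunits is the steepest around 0, and that of the carriers keeps an upper tail of differences above 0.7.

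Complex I takes electrons from NADH, and none of its 6 measured core subunits and 28 accessory subunits passed. The core subunits, which hold the flavin and the iron-sulfur clusters, had differences from -0.24 (Ndufv1) to 0.19 (Ndufs3). Ndufs1, the core subunit with the smallest difference, stood at 8.31 and 8.46 (GFP-high) against 8.39 and 8.27 (GFP-negative). Accessory subunits ranged from -0.25 (Ndufv3) to 0.38 (Ndufb7). Ndufb7 stood at 8.11 and 8.01 against 7.68 and 7.68, with no overlap between the groups, and missed the threshold (adjusted p = 0.0734). Among the 7 assembly factors, Ndufaf3 was 1.38-fold higher at 8.30 and 8.42 against 7.96 and 7.84 (log2 difference 0.46, SE 0.126, limma adjusted p = 0.0425). The other 6 had differences from -0.03 to 0.27. The call of Ndufaf3 was lost whichever array was left out (adjusted p 0.137 to 0.243).

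Complex II, which is also the succinate dehydrogenase of the citric acid cycle, had 1 of its 4 subunits lower. Sdhc, a membrane anchor of the complex, stood at 9.70 and 9.69 (GFP-high) against 10.24 and 10.23 (GFP-negative). Sdhc was 1.46-fold lower (log2 difference -0.54, SE 0.118, limma adjusted p = 0.0170). Sdha, the flavoprotein that oxidises succinate, stood at 10.61 and 10.77 against 10.68 and 10.72, and its 95% interval ran from -0.31 to 0.28. Sdhb and Sdhd differed by 0.02 and 0.09. The call of Sdhc was lost whichever array was left out (adjusted p 0.101 to 0.128), with a difference then between -0.55 and -0.54.

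In complex III, 1 of the 7 subunits taken by symbol was higher. A further subunit, Cyc1 (cytochrome c1), lay outside the symbol rule. Cyc1 stood at 10.35 and 10.33 (GFP-high) against 10.14 and 10.14 (GFP-negative) without passing (log2 difference 0.20, limma adjusted p = 0.313). Uqcr11, a small subunit, stood at 8.83 and 8.86 (GFP-high) against 8.36 and 8.32 (GFP-negative), 1.42-fold higher (log2 difference 0.50 with SE 0.119, limma adjusted p = 0.0240). A further probe set of Uqcr11 gave 0.51 and passed when all probe sets were tested (adjusted p = 0.0373). The Rieske iron-sulfur protein gene Uqcrfs1 (0.19) and the core subunit gene Uqcrc1 (-0.16) did not pass. The call of Uqcr11 was lost whichever array was left out (adjusted p 0.119 to 0.156).

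Complex IV, cytochrome c oxidase, held most of the subunits that passed. Of 19 measured genes 1 was higher and 3 were lower. The one higher, Cox6a1, stood at 9.69 and 9.76 against 9.25 and 9.27, a 1.38-fold difference (log2 difference 0.47, SE 0.119, limma adjusted p = 0.0332). A further, dimmer probe set of Cox6a1 gave 0.35 and did not pass when all probe sets were tested (limma adjusted p = 0.169). The 3 lower were Ndufa4l2, Cox4i2 and Cox6b2, each the less widespread paralogue of a common subunit.

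Ndufa4l2, a paralogue of Ndufa4 known as a gene induced in hypoxia, had the largest difference of all 134 genes. It stood at 4.49 and 4.39 in GFP-high cells and 5.74 and 6.06 in GFP-negative cells, 2.76-fold lower (log2 difference -1.46, SE 0.148, limma adjusted p = 0.000484). Ndufa4 itself stood at 8.89 and 8.85 against 8.99 and 8.71, with overlapping groups and an interval from -0.30 to 0.36. The call of Ndufa4l2 ended when the kidney B array of the GFP-high fraction was left out (adjusted p = 0.0522).

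Cox4i2, the alternative form of subunit 4 that is linked to oxygen sensing, stood at 4.71 and 5.01 against 5.32 and 5.62, 1.52-fold lower (log2 difference -0.61, SE 0.163, limma adjusted p = 0.0397). The common form Cox4i1 stood at 9.66 and 9.67 against 9.39 and 9.41, higher on both GFP-high arrays without passing (adjusted p = 0.188). Cox6b2, the form of subunit 6b known from testis, stood at 6.38 and 6.39 against 6.80 and 6.95 (log2 difference -0.49, SE 0.125, limma adjusted p = 0.0332), and Cox6b1 at 10.73 and 10.66 against 10.41 and 10.38 (adjusted p = 0.142). Leaving out single arrays gave an adjusted p of 0.119 to 0.289 for Cox4i2, 0.115 to 0.211 for Cox6b2 and 0.125 to 0.179 for Cox6a1. Cox6b2 also missed the threshold with quantile normalization (adjusted p = 0.0611) and with each array centred on its median (adjusted p = 0.0828) and with a trended robust prior (adjusted p = 0.0661), and Cox6a1 with the mean of its probe sets (adjusted p = 0.0620).

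Ndufa4l2 and Cox4i2 are known from pericytes and other mural cells. The stroma markers moved with them, with Pdgfrb, which pericytes express, at a mean of 5.53 (GFP-high) against 9.28 (GFP-negative) and Acta2 of smooth muscle at 9.16 against 11.92. The part of such cells in these results was not tested. The muscle forms Cox6a2 and Cox7a1 did not pass (differences 0.01 and 0.36), nor did Cox8b, at 4.52 and 3.54 against 4.57 and 4.71. With kidney A left out of the GFP-high fraction the difference of Cox8b was -1.11, and leaving out kidney B instead gave -0.13. The testis forms Cox7b2 and Cox8c lay below 4.24 in both groups, the 95th percentile of 990 olfactory receptor genes, taken here as a background level. The GFP-high mean of Cox8b, 4.03, also lay below this level, so its differences are not exact sizes.

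**Figure D3:**
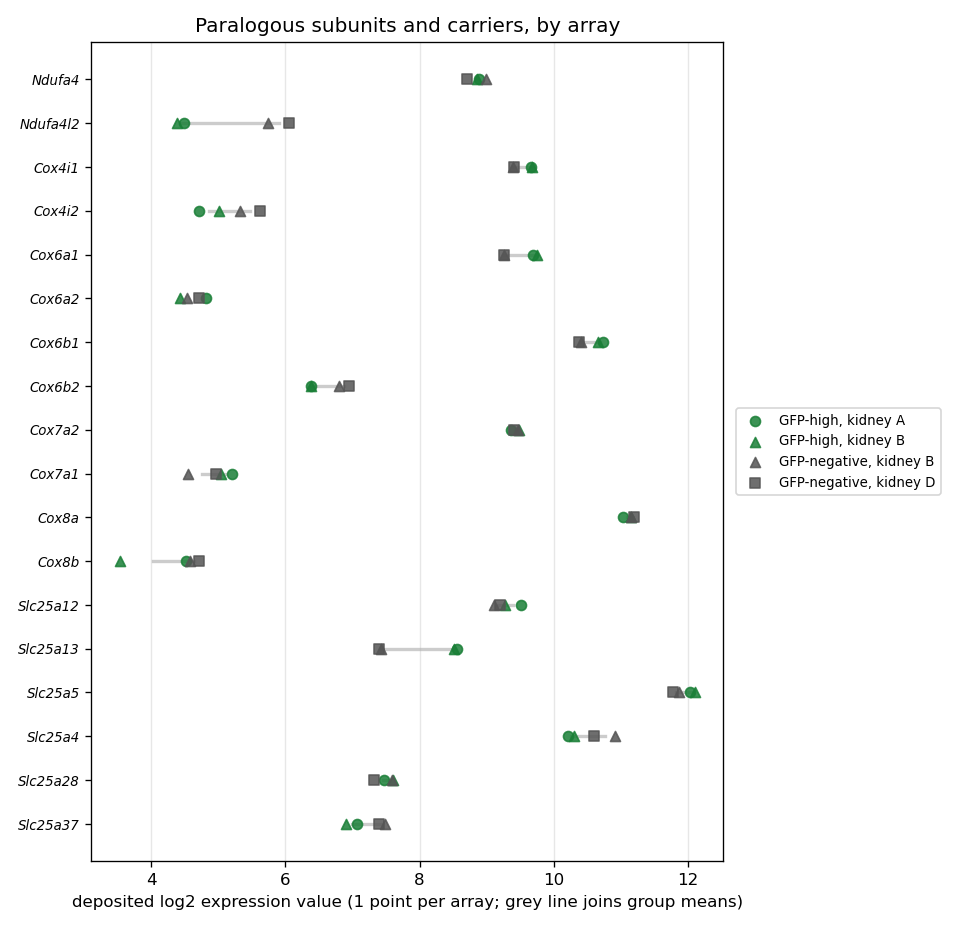
Deposited log2 values of paralogous subunits and carriers, 1 point per array, green for GFP-high and grey for GFP-negative, with the marker shape giving the kidney. The 2 green and 2 grey points of Ndufa4l2, Slc25a13, Cox4i2 and Slc25a37 do not overlap. Nor do those of several genes that did not pass, among them Slc25a12, Slc25a4, Slc25a5, Cox4i1, Cox6b1, Cox7a1, Cox8a and Cox8b. The points of Ndufa4, Cox7a2 and Slc25a28 overlap. Among all genes the groups did not overlap in 33.2% (higher) and 24% (lower).

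None of the 17 measured subunits of complex V, the ATP synthase, passed. The catalytic subunit gene Atp5b stood at 12.06 and 12.28 (GFP-high) against 12.11 and 12.17 (GFP-negative), with an interval of the difference from -0.28 to 0.34. Atp5a1, the other large subunit of the catalytic head, differed by 0.07. The c-ring genes Atp5g1, Atp5g2 and Atp5g3, which encode the same mature protein, differed by -0.04, 0.05 and -0.07. The largest differences were those of the small subunit genes Atp5mpl (0.35), Atp5e (0.33), Atp5md (0.32) and Atp5l (0.31), which did not pass (adjusted p 0.108 to 0.201). In these 4 genes the groups did not overlap, as in 33.2% of all genes in this direction and 24% in the opposite one. All 6 probe sets of Atp5l and all 3 of Atp5md were higher, but many such probe sets may read the same transcripts or processed copies of the gene. The 2 probe sets of Atp5o differed in sign (0.06 and -0.04).

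The carrier genes ranged from -0.75 to 1.18 in log2 difference, and 8 of the 46 rose. Among these was Slc25a13, which encodes citrin, the aspartate-glutamate carrier of the malate-aspartate shuttle. It stood at 8.56 and 8.51 (GFP-high) against 7.43 and 7.40 (GFP-negative), a 2.17-fold rise (log2 difference 1.12 with SE 0.119, limma adjusted p = 0.000604). The difference within kidney B alone was 1.08. Slc25a13 was the 1 member of the 17 called that passed with each of the 4 arrays left out in turn (adjusted p 0.0254 to 0.0371). Its paralogue Slc25a12, which carries the same substrates, stood at 9.51 and 9.27 against 9.11 and 9.19 and did not pass (interval from -0.08 to 0.56). None of the other 11 carriers of amino acids and related compounds passed, with differences from -0.27 (Slc25a40, linked to glutathione import) to 0.28 (Slc25a26, the S-adenosylmethionine carrier).

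Slc25a23, a calcium-regulated exchanger of ATP-Mg for phosphate, stood at 10.08 and 10.01 against 9.00 and 9.18, 1.94-fold higher (log2 difference 0.96 with SE 0.129, limma adjusted p = 0.00191). Its call was lost when either GFP-high array was left out (adjusted p 0.0680 without kidney A and 0.0570 without kidney B). Its relatives Slc25a24, Slc25a25 and Slc25a41 differed by -0.05, -0.09 and 0.35 and did not pass, and the GFP-negative mean of Slc25a41 lay below background. Slc25a17, a peroxisomal carrier of nucleotides and coenzymes, stood at 10.91 and 10.88 against 9.90 and 10.10, 1.86-fold higher (log2 difference 0.89 with SE 0.129, limma adjusted p = 0.00265). Leaving out single arrays gave an adjusted p of 0.0326 without kidney D and of 0.0549 to 0.0759 otherwise.

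Slc25a30, named as a kidney mitochondrial carrier and related to the uncoupling proteins, stood at 8.70 and 8.88 against 7.83 and 8.23, 1.69-fold higher (log2 difference 0.76 with SE 0.166, limma adjusted p = 0.0177). Its adjusted p with 1 array left out was 0.048 to 0.197, passing only when kidney D was left out. The other carriers of this kind, Slc25a14 and Slc25a27, differed by 0.09 and 0.06. Slc25a10, the carrier that exchanges malate and succinate for phosphate, stood at 9.26 and 9.33 against 8.71 and 8.92, 1.39-fold higher (adjusted p = 0.0440, and 0.108 to 0.262 with 1 array left out). The oxoglutarate carrier gene Slc25a11 (0.24) and the citrate carrier gene Slc25a1 (-0.26) did not pass.

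The less studied carriers Slc25a48, Slc25a45 and Slc25a53 were all higher. Slc25a48, at 5.39 and 5.35 against 4.06 and 4.31, was higher (limma adjusted p = 0.000913), and because its GFP-negative mean of 4.19 falls under the background level, the fitted log2 difference of 1.18 (SE 0.136) is not an exact size. Slc25a45 stood at 6.72 and 7.18 against 5.61 and 5.96, 2.25-fold higher (SE 0.193 on the log2 scale, limma adjusted p = 0.00512). Slc25a53 stood at 5.35 and 5.61 against 4.72 and 4.48, 1.84-fold higher (limma adjusted p = 0.00588). The call of Slc25a48 was lost when either GFP-high array was left out (adjusted p 0.0590 without kidney A and 0.0530 without kidney B). Leaving out single arrays gave an adjusted p of 0.0546 to 0.110 for Slc25a45 and 0.0561 to 0.103 for Slc25a53.

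The carriers with a lower value that passed were Slc25a21 and Slc25a37. Slc25a21, the carrier of oxodicarboxylates from lysine and tryptophan breakdown, stood at 3.36 and 3.57 (GFP-high) against 4.26 and 4.17 (GFP-negative). It passed the test (limma adjusted p = 0.00696), but both means lie below the background level, so it is given no fold and is not read as a difference in expression. This leaves 1 of the 2 carriers counted as lower with a level above background. With any 1 array left out its adjusted p was 0.0559 to 0.105. Slc25a37, the iron importer mitoferrin 1, stood at 7.07 and 6.91 against 7.48 and 7.40, 1.37-fold lower (log2 difference -0.45, SE 0.128, limma adjusted p = 0.0490). It lay just inside the threshold, and missed it with quantile normalization (adjusted p = 0.0733), with each array centred on its median (0.137), with a trended robust prior (0.0702) and with any 1 array left out (0.125 to 0.263). Mitoferrin 2, encoded by Slc25a28, differed by 0.08.

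Slc25a4, which encodes the adenine nucleotide translocator known from heart and muscle, lay just outside the threshold, at 10.22 and 10.31 against 10.91 and 10.61 (log2 difference -0.49, SE 0.145, limma adjusted p = 0.0560). Slc25a4 passed with quantile normalization (adjusted p = 0.0349), without dim genes, with a trended robust prior and with the crossed pairing of arrays. It did not pass with array number as a block, with each array centred on its median or with the mean of probe sets. With single arrays left out it did not pass either, and its log2 difference ran from -0.65 to -0.34. The more widespread translocator gene Slc25a5 stood at 12.04 and 12.10 against 11.87 and 11.77, in the opposite direction, without passing (adjusted p = 0.229). All 3 probe sets of Slc25a5 were higher, by 0.20 to 0.26. The testis form Slc25a31 lay below background in both groups. The phosphate carrier gene Slc25a3 (-0.07) and the carnitine-acylcarnitine carrier gene Slc25a20 (0.17) did not pass.

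**Figure D4:**
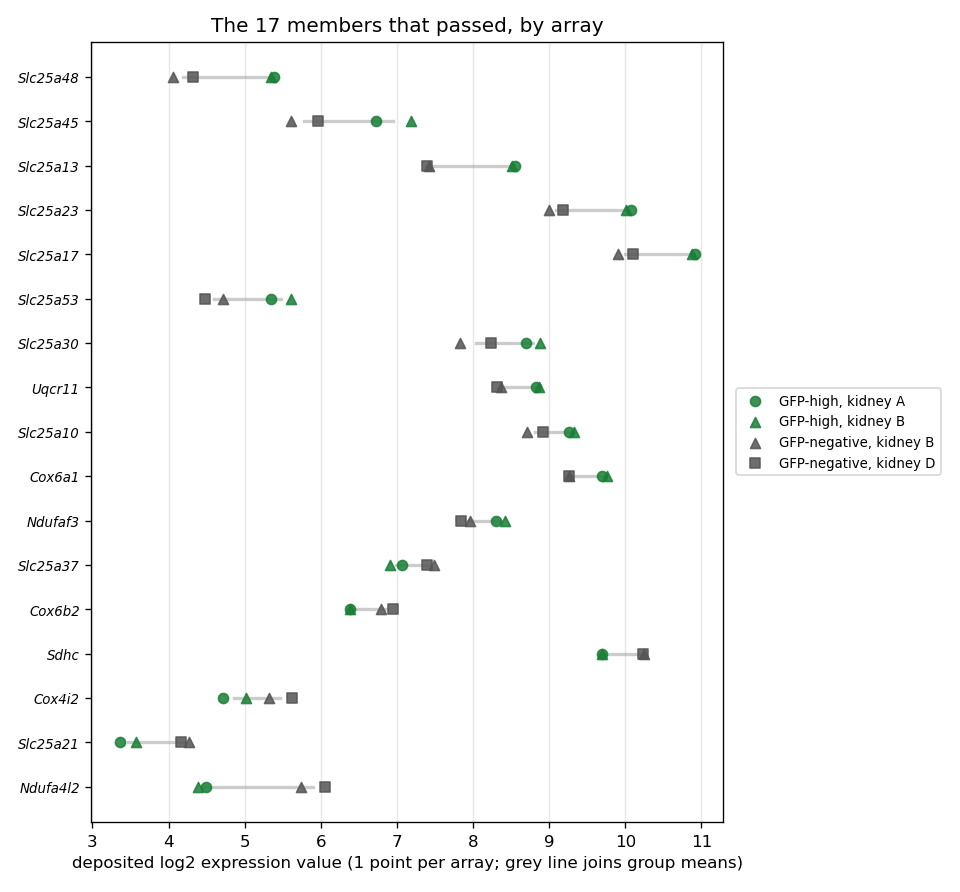
Deposited log2 values on the 4 arrays of the 17 members that passed, in order of the fitted log2 difference from Slc25a48 at the top to Ndufa4l2 at the bottom, green for GFP-high and grey for GFP-negative, with a grey line joining the group means. The green points lie on 1 side of the grey points in each row, which passing the test largely fixes, and the GFP-negative points of Slc25a48 and all points of Slc25a21 lie near or under the background level of 4.24.

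The members with the smallest differences of their role included the accessory complex I subunit gene Ndufs6 (-0.01), Uqcrq of complex III (0.09), Cox5a of complex IV (0.01), Atp5d of complex V (-0.02) and the NAD carrier gene Slc25a51 (-0.06). None of these 5 passed.

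In kidney B, the 1 kidney letter found in both fractions, 110 of the 134 members had a difference of the same sign as over all arrays, as did 15833 of all 18820 genes. These arrays are part of the overall difference, so a shared sign is in part built in, and the members' count is near that of all genes. For the 17 called members the difference within kidney B ranged from 0.46 (Ndufaf3) to 1.57 (Slc25a45) in those higher and from -0.31 (Cox4i2) to -1.35 (Ndufa4l2) in those lower. These are differences between single arrays, with no replicate.

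Other genes of mitochondrial energy metabolism were counted from lists of known function. Beside each count stand the shares of all genes, 8.08% higher, 11.2% lower and 19.2% in either direction. Of 18 measured regulators of mitochondrial biogenesis 3 were higher (16.7%) and 1 lower (5.56%). The first share is above that of all genes and the second below it, but the genes are few and the difference was not tested. Ppargc1a, the coactivator PGC-1alpha, stood at 9.53 and 9.41 against 7.85 and 8.04, 2.87-fold higher (log2 difference 1.52 with SE 0.132, limma adjusted p = 0.000235), and passed with each array left out. Esrrg, an orphan nuclear receptor that works with it, stood at 9.44 and 9.09 against 7.34 and 7.96, 3.07-fold higher (limma adjusted p = 0.00215), and lost its call when either GFP-high array was left out (adjusted p 0.117 without kidney A and 0.0777 without kidney B). Tfam, which packages and transcribes mitochondrial DNA, was 1.45-fold higher (adjusted p = 0.0214), and Ppargc1b was lower (log2 difference -0.68, adjusted p = 0.0318). With any 1 array left out neither passed (adjusted p 0.0992 to 0.152 for Tfam and 0.0559 to 0.266 for Ppargc1b). Nrf1 (-0.06), Gabpa (-0.02) and Esrra (-0.30) did not pass.

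Of 6 genes of the malate-aspartate and glycerol phosphate shuttles, which carry reducing equivalents from the cytosol to the chain, 2 were higher and 1 lower, too few genes to set against 8.08% and 11.2% of all genes. Gpd2, the mitochondrial glycerol phosphate dehydrogenase, stood at 7.73 and 7.81 against 7.11 and 7.13, 1.57-fold higher (adjusted p = 0.00854). The cytosolic enzymes went both ways, with Gpd1l 1.75-fold higher (adjusted p = 0.00316) and Gpd1 lower (log2 difference -0.92, adjusted p = 0.0228). Got1 (0.02), Got2 (0.16) and Mdh1 (-0.06), enzymes of the shuttle that Slc25a13 serves, did not pass. With any 1 array left out, Gpd2 (adjusted p 0.0757 to 0.0955), Gpd1l (0.0523 to 0.0609) and Gpd1 (0.0763 to 0.252) did not pass.

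The remaining lists differed in how many genes passed, beside 19.2% of all genes in either direction. Of 74 mitochondrial ribosomal protein genes 1 was higher and 1 lower, with a median log2 difference of 0.09. Of 21 genes of the citric acid cycle and pyruvate dehydrogenase 1 was higher (Idh3a, 0.53) and 1 lower (Pdk1, -0.69, an inhibitory kinase of pyruvate dehydrogenase). Of 38 assembly factors outside the Ndufaf genes 1 was higher (Coa3, 0.61). Of 16 genes of fatty acid oxidation, a pathway prominent in the proximal tubule, 1 was higher (Cpt1a, 0.53) and 3 were lower (Cpt1c, -0.95, Acaa2, -0.86, and Decr1, -0.62). Of 15 glycolytic genes 2 were higher (Pfkp, 0.68, and Ldhb, 0.52) and 2 lower (Eno2, -0.55, and Ldha, -0.52). The counts for fatty acid oxidation and glycolysis are near the share of all genes or above it. Those of ribosomal proteins (1.35% each way), other assembly factors (2.63% higher) and the citric acid cycle list (4.76% each way) are below it. These differences were not tested. With each array left out in turn, every gene named from these lists lost its call at least once, and the highest adjusted p of a gene ran from 0.0768 (Acaa2) to 0.287 (Coa3). Among 4 genes of cytochrome c, cytochrome c1 and haem attachment, 0 passed by limma. Nor did any of 11 genes of coenzyme Q synthesis, 12 of mitochondrial dynamics and 11 of the uncoupling proteins, porins and other carriers.

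**Figure D5:**
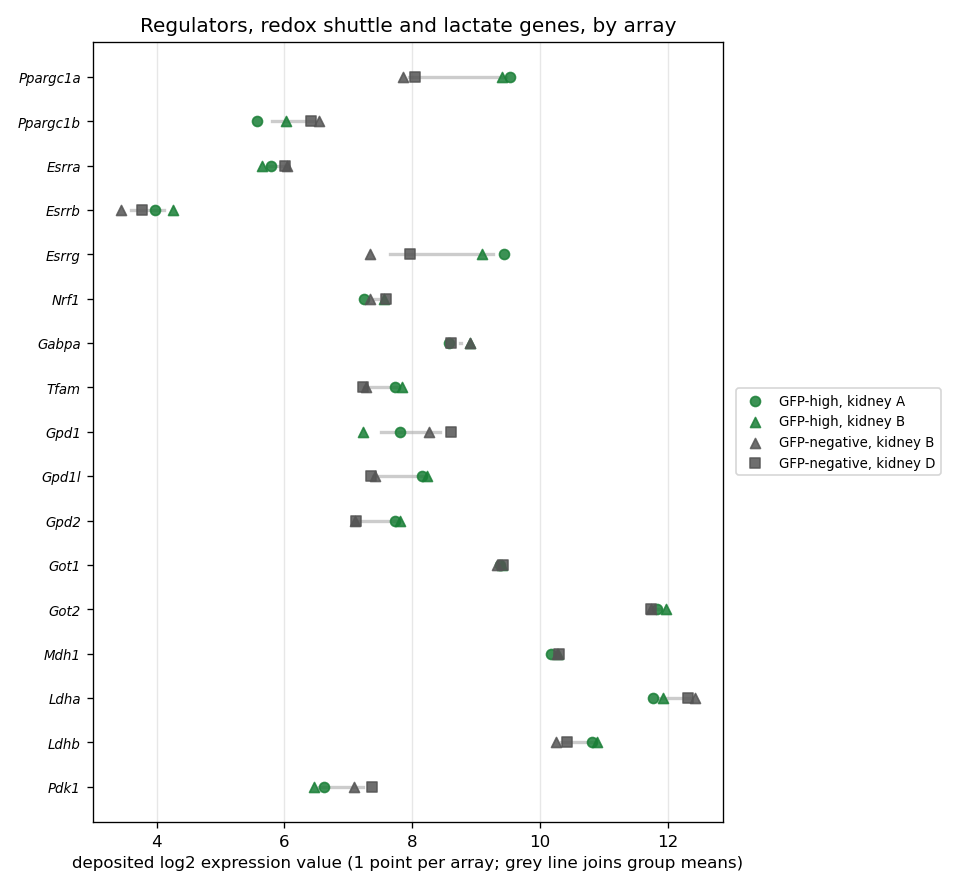
Deposited log2 values on the 4 arrays of biogenesis regulators, shuttle enzymes, lactate dehydrogenases and Pdk1, green for GFP-high and grey for GFP-negative, with a grey line joining the group means. Ppargc1a and Esrrg show the widest gaps, at 1.52 and 1.62, and Nrf1, Gabpa, Got1 and Mdh1 show overlapping groups.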

How the data were processed

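Total RNA of flow-sorted cells was hybridised to 4 Affymetrix arrays, labelled with the manufacturer's whole-transcript kit per the labels' protocols. The authors deposited log2 expression values, whose background correction, probe set summary and normalization are not stated in the labels. Array medians were 5.07 to 5.24, and arrays have no read depth, so their number limits the precision. Genes were named through the platform annotation: of 35556 probe sets, 21218 named 1 gene, 1881 several and 12457 none. All 134 members matched a RefSeq gene identifier. Groups came from the sample descriptions. The gene test was limma 3.58.1 (lmFit, then eBayes) under R 4.3.3, two-sided, with group as the only term, 2 residual and 5.11 prior degrees of freedom, and Benjamini-Hochberg adjustment over 18820 genes at 0.05. SE is the moderated standard error, and intervals are moderated 95% intervals. A fold is 2 to the power of the log2 difference. The code of the test was run on simulated arrays drawn from its own fitted variances. That run does not show how often the calls here are right.

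The members, gene lists and background level were chosen with earlier results of these data known. Named were all members that passed, the largest differences of each role where none passed, the smallest of each role, sets of paralogues fixed by symbol, members whose probe sets differ in sign, and passing genes of the other lists; further genes are examples chosen after their values were seen. Alternatives were a block by array number, quantile and median scaling, a filter on dim genes, the mean of a gene's probe sets, a trended robust prior and leaving out each array. Member symbols on probe sets with several gene names, and genes encoded by mitochondrial DNA, are not analysed in the gene test here. No value column was left unused (0).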

Additional observations from a re-analysis of the deposited data

How the results depend on the processing

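Without each array in turn (1 residual degree of freedom, the lone array assumed to vary like the other group), the calls over all genes fell to 387 to 603 higher and 729 to 1148 lower, from 1520 and 2100. Chain subunits then had 0 higher without every array and 0 to 2 lower, assembly factors 0 higher, and carriers 1 to 5 higher and 0 lower. Of the 17 called members, 1 passed without every array, and no called member changed sign. Of the 60 members named by rule, 27 changed sign in at least 1 alternative, none of them where it passed.

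With array number as a replicate block, chain subunits had 0 higher and 3 lower, assembly factors 0 higher, and carriers 7 higher and 1 lower; Ndufaf3, Uqcr11, Cox6a1, Cox6b2, Slc25a10 and Slc25a37 lost their calls (adjusted p 0.0651 to 0.0987). The numbers do not follow the kidney letters, since kidney B is number 2 in the GFP-high fraction and number 1 in the GFP-negative fraction. Deviations of same-numbered arrays correlated at -0.198. The crossed pairing reverses this sign by construction, so the value cannot show which arrays are paired. With the crossed pairing (kidney B with B, A with D), added after the data were seen, 19 members were called, among them all 17.

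Centring each array on its median moved the median difference to 0.123 for chain subunits, 0.16 for carriers and 0.147 for all genes, left 1 carrier lower, gave 3 subunits higher and 3 lower, and turned the split of all genes to 2122 higher and 1889 lower. Leaving out genes below the median level gave 1192 genes and 2 subunits lower, where the main test called 1142 of the same genes lower. Ndufa4l2 and Cox4i2, called lower in the main test, were among the genes left out and so were not tested there. The mean of all probe sets left 1 subunit higher, and the trended robust prior gave 4, where the cause was not tested. With 2 arrays a group, the smallest difference called among members was 0.45 in size, and genes near the background level of 4.24 give compressed folds.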

Other observations

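Probe sets that name a gene of these families together with another gene were outside the comparison. The 3 probe sets shared by Cox7c and Gm10012 differed by 0.12, 0.11 and -0.01 on the log2 scale between GFP-high and GFP-negative cells. The brighter of 2 shared by Uqcrc2 and Pdzd9 stood at 10.85 and 11.23 against 11.29 and 11.07, and the brighter of 2 shared by Ndufa13 and Tssk6 at 7.77 and 7.94 against 7.99 and 7.96. Among all named probe sets, 0 of these 10 passed limma (adjusted p 0.553 to 0.984).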
